A study of Mus musculus with 10 samples.

Results

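Chemokine transcripts were examined in cultured stromal cells of mouse fat. The 10 genes, Ccl2, Ccl7, Ccl9, Ccl11, Cxcl1, Cxcl5, Cxcl9, Cxcl10, Cxcl12 and Cx3cl1, were taken by symbol from the count table, in which they are 10 of 25229 rows. All 10 passed the filter on low counts, which left 14251 genes for testing. RNA was collected 6 hr after FICZ or its vehicle DMSO was added to confluent cultures that had not been passaged. FICZ, used at 100 nM, is a tryptophan photoproduct that binds the aryl hydrocarbon receptor (AHR). The cultures grew from CD45-CD31-Pdgfra+ cells, sorted from the stromovascular fraction of digested perigonadal white adipose tissue of WT mice. There were 5 libraries per group, numbered 1 to 5 in each, and the comparison asks what the AHR ligand does to these precursor cells. Strain, age and sex of the mice were not given for these cultures in the sources used here, nor was whether a number marks a shared animal or culture, so p-values measure only the spread between these samples. Growth in medium with FGF, outside the tissue, limits the cultures as a model of the cells in fat. Total counts ranged from 38328611 to 50210111 in DMSO and from 40272024 to 47670865 in FICZ. A level of 3 counts, used as the floor of detection, equals 0.0603 to 0.0787 CPM (counts scaled to a common library size), a floor that covers counting error only.

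Chemokines are small secreted proteins that guide leukocytes along a gradient by binding G protein-coupled receptors. In fat, stromal cells are a source of ligands that draw monocytes, eosinophils, neutrophils and lymphocytes into the tissue, and of Cxcl12, which holds precursor cells in their niche. Many of these genes are transcribed through NF-kB after inflammatory signals, and Cxcl9 and Cxcl10 also answer to interferons.

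The labelled cell type was checked against its markers. Pdgfra, the receptor used for the sort, had a mean ± SD over 5 libraries of 1319.7 ± 88.3 CPM under DMSO and 1387 ± 118 CPM under FICZ, and Col3a1, a fibrillar collagen gene, was the most abundant of the 9 stromal markers. Pdgfra and Col3a1 were the 2 of these 9 with a higher mean in FICZ, and the other 7 had a lower mean (median log2 fold change of the list -0.07, 0 past the threshold in edgeR, and 0 at an unadjusted p of 0.05 or less, against 1 with the block). Ptprc, which encodes CD45, had 7 to 83 counts per library and Pecam1, which encodes CD31, 22 to 79. Other markers of these classes had more, with 424 to 725 counts for Csf1r and 2202 to 3816 for Tek, and their source was not tested. Of 8 lymphocyte markers none passed the filter on low counts, Cd79a was the most abundant, and Ncr1 was at 0 in all 10 libraries. The endothelial list was led by Tek with 79.5% of its summed level and the mesothelial list by Wt1 with 75.3%. Csf1r led the 12 macrophage markers, whose summed level was 38.1, 26.5, 32.0, 32.5 and 62.6 CPM in DMSO replicates 1 to 5 and 31.3, 30.5, 38.8, 26.5 and 27.1 CPM in FICZ replicates 1 to 5. Of the 11 macrophage markers tested, 9 had a lower mean in FICZ (median log2 fold change -0.63, and -0.52 with the replicate block), 0 passed the threshold in edgeR and 2 had an unadjusted p at or under 0.05, against 0 with the block, while Csf1r itself had a log2 fold change of 0.07. Lower means were also found for 7 of 8 endothelial markers tested (median -0.46, 0 at an unadjusted p of 0.05 or less and 2 with the block) and 6 of 9 mesothelial markers (median -0.16, 3 and 2), none past the threshold in edgeR. The 3 mesothelial markers at an unadjusted p of 0.05 or less in edgeR without the block were Krt8 (log2 fold change -1.15), Krt18 (-1.23) and Cdh1 (-1.02). Of the rest, Krt19 (-0.33), Msln (-0.16) and Wt1 (-0.04) had a lower mean, and Upk3b (0.31), Upk1b (0.12) and Lrrn4 (0.02) a higher mean. Over all genes tested 46.2% had a negative log2 fold change, and 4.82% such a p, or 4.65% with the block. Over all 10 libraries, most genes of these lists, of the stromal list and of the chemokine list had lower means in FICZ alike. Their part in the result was not tested.

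Transcripts of hepatocytes went against the label. All 12 hepatocyte markers were counted in every library, led by Alb, the albumin gene, with 46.2% of their summed level. That sum was 3962, 1641, 1863, 3894 and 9503 CPM in DMSO replicates 1 to 5. In FICZ it was 2305, 2026, 2386, 1772 and 2179.9 CPM. DMSO replicate 5 thus stood apart from the other 9 libraries in liver transcripts, and it was also the highest in the summed macrophage, lymphocyte and mesothelial lists. The lymphocyte sum there was only 0.718 CPM. Of the mesothelial list, Wt1 (81.6 CPM), Krt8 (26.6), Krt18 (23.1) and Cdh1 (2.57) were at their highest in that library. Krt19 (0.328) and Lrrn4 (0.759 CPM) were at their lowest, and Msln, Upk3b and Upk1b lay within the range of the other libraries. Of the 12 hepatocyte markers, 12 had a lower mean in FICZ, 0 passed the threshold in edgeR, and 11 had an unadjusted p at or under 0.05, against 0 with the replicate number as a block, where their median log2 fold change was -0.74 in place of -1.10. Beside these stand 4.82% and 4.65% of all genes tested at such a p without and with the block, and 46.2% with a negative log2 fold change.

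FICZ acted on the cultures. Cyp1a1, a cytochrome P450 gene and standard AHR target, averaged 26.8 ± 12.8 CPM under DMSO and 255 ± 92.4 CPM under FICZ, and Ahrr, the AHR repressor gene, at 10.1 ± 2.21 and 32.1 ± 2.87 CPM. Cyp1a1 (log2 fold change 3.25, adjusted p = 0.0189), Ahrr (1.66, adjusted p = 0.00324) and Tiparp, an ADP-ribosyltransferase gene (0.91, adjusted p = 0.0335), rose in edgeR's quasi-likelihood test with Benjamini-Hochberg adjustment over all genes tested. Cyp1b1, a further P450 gene of the pathway, had a log2 fold change of 0.62 and an adjusted p of 0.147 in the same edgeR test. DESeq2 placed it past the threshold with the same value of 0.62 (adjusted p = 3.33e-05), as did edgeR without DMSO replicate 5 (0.70, adjusted p = 0.022). The edgeR call of Cyp1a1 was lost in 5 of 10 omissions of a library (log2 fold change 3.06 to 3.49 over all 10), with Alb as a covariate (3.12, adjusted p = 0.0656) and without a filter (3.24, adjusted p = 0.0726), while Ahrr passed in all. That of Tiparp was lost in 7 of 10 omissions (0.83 to 0.97), with Alb as a covariate (0.94, adjusted p = 0.0537) and where at least 1 CPM in 5 libraries was required (0.89, adjusted p = 0.0506). Cyp1a1, Ahrr and Tiparp were the 3 genes past the threshold of 0.05, or 0.0211% of those tested. When edgeR took same-numbered libraries as paired, 8 genes lay past it, or 0.0561%, each of them higher with FICZ, and Tiparp then had a log2 fold change of 0.90 and an adjusted p of 0.0509.

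None of the 10 chemokine genes passed that threshold in edgeR, with or without the block. At an unadjusted p of 0.05 or less the count was also 0 of 10, where 4.82% of all genes were called (190 higher and 497 lower), and with the block 0 of 10 against 4.65% (354 higher and 309 lower). Like the edgeR tests two-sided, an exact permutation test on log2 CPM, which has 252 ways of dividing 10 libraries into groups of 5, reached p at or under 0.05 for 0 of 10 members and 2.41% of genes tested, with a smallest possible p of 0.00794. No member moved in the same direction in all 5 same-numbered pairs, as 7.12% of genes did, and none had groups that did not overlap, as 0.47% of genes did. Limma-voom and DESeq2 without a block gave 0 members at an unadjusted p of 0.05, and DESeq2 with the block gave 1, Cxcl9 (log2 fold change -1.04, adjusted p = 1.0). The share of all genes at such a p is not given here for these tools, so no conclusion is drawn from these counts. Past the adjusted threshold lay 3 genes with limma-voom, 16 with DESeq2 and 26 with DESeq2 with the block, and 0 members under each. The mean was higher with FICZ for 2 members, Cxcl10 and Cxcl5, and lower for 8, where 46.2% of all genes tested had a negative log2 fold change. The median of their log2 fold changes was -0.09, beside 0.01 over all genes tested. Without DMSO replicate 5, Ccl11 (0.02), Cxcl1 (0.10) and Cxcl12 (0.01) turned positive and Ccl7 was at 0. Ccl2 (-0.08), Ccl9 (-0.13), Cxcl9 (-0.72) and Cx3cl1 (-0.14) stayed negative, and Cxcl5 (0.54) and Cxcl10 (1.75) positive. The tally and the median thus depend on that library. With Alb as a covariate, Ccl11, Cxcl1 and Cxcl12 also turned positive. Because whole cultures were measured, fewer cells of a type and less RNA per cell cannot be told apart in any of these values.

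The members covered a wide range of levels. Per kilobase of exon, Ccl2 was the most abundant in DMSO at 202 ± 36.6 CPM per kb, and its lowest library lay above the highest of every other member. Cxcl12 at 71.6 ± 17.3, Ccl7 at 64.5 ± 9.04 and Ccl11 at 46.9 ± 19.7 CPM per kb followed, with ranges that overlapped from each to the next. A gap separated them from Cxcl5 (9.88 ± 7.88) and Ccl9 (6.64 ± 2.38 CPM per kb), which overlapped each other. Cx3cl1 (3.15 ± 0.541) and Cxcl1 (2.91 ± 0.763 CPM per kb) also overlapped and lay below Ccl9. Cxcl10 at 1.30 ± 0.667 and Cxcl9 at 0.254 ± 0.121 CPM per kb were the lowest, each with a range apart from its neighbour in the order. In FICZ the first 6 places were the same, and Cxcl10 stood in place 7 with 4.13 ± 4.43 CPM per kb, a range that overlapped those of Cxcl5, Ccl9, Cxcl1 and Cx3cl1. Ccl2, Ccl7 and Cxcl12 together made up 74.0% to 89.2% of the summed level per length in DMSO and 73.1% to 88.0% in FICZ. These levels depend on the length used, the union of coding exons, 813 bases for Ccl2 and 7160 for Cxcl12, which has 3 coding transcripts. By its longest transcript, 5627 bases, Cxcl12 averaged 91.1 CPM per kb in DMSO, and a shorter transcript would give a higher value. Which transcripts were in use was not tested, so the order of Ccl2 and Cxcl12 holds for these lengths only.

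**Figure D1:**
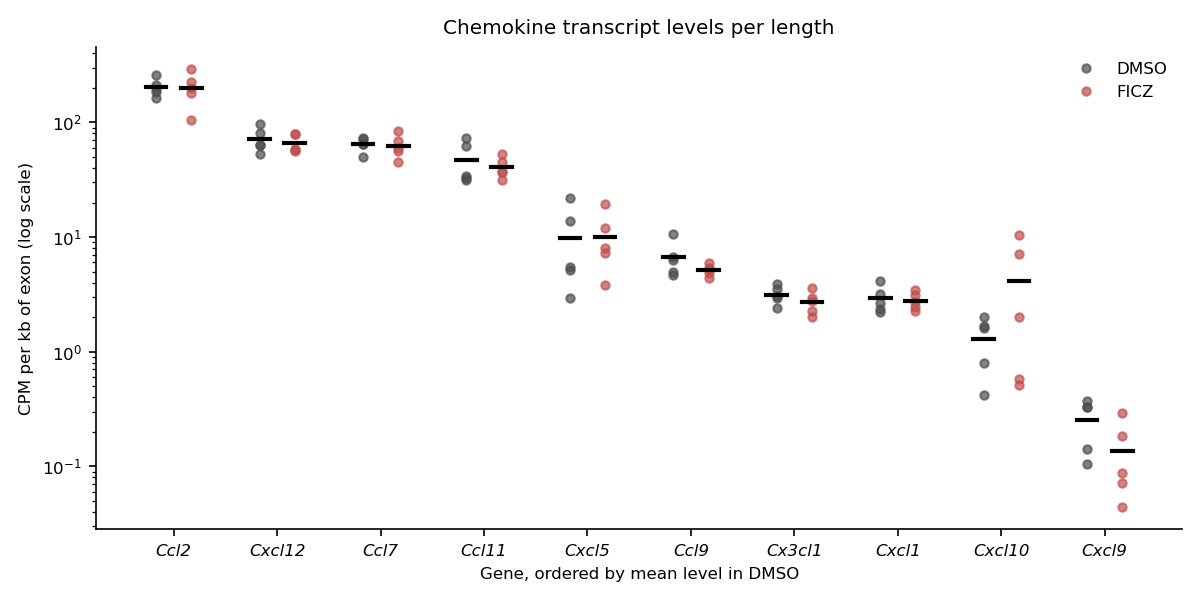
Level of each chemokine gene in CPM per kilobase of exon, on a log axis, with the genes ordered by their mean in DMSO (grey points, DMSO libraries; red points, FICZ libraries; black bars, means of 5). Ccl2 was the highest at 202 CPM per kb in DMSO and Cxcl9 the lowest at 0.254, and Cxcl10 in FICZ spread from 0.516 to 10.4.

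Ccl2 encodes a ligand of the receptor CCR2 that draws monocytes out of the blood. Its level was 158, 171, 211, 148 and 133 CPM in DMSO replicates 1 to 5 and 183, 162, 238, 146 and 85.4 CPM in FICZ replicates 1 to 5. Replicate 3 was the highest and replicate 5 the lowest in either group, and the groups overlapped over the whole range of DMSO. The log2 fold change was -0.01 (95% interval -0.51 to 0.48, adjusted p = 0.999 in edgeR), with 2 of 5 pairs higher in FICZ. Within pairs, FICZ minus DMSO in log2 CPM was 0.21, -0.08, 0.17 and -0.03 for numbers 1 to 4 and -0.63 for number 5. Taking the pairs into account narrowed the interval to between -0.36 and 0.22. The sign of the fold change turned when DMSO replicate 3 was left out (0.09), and likewise without FICZ replicate 4 (0.02) or FICZ replicate 5 (0.14).

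Ccl7, a monocyte attractant that shares CCR2 with Ccl2, lies 8.26 kb from it on chromosome 11. It was at 39.9, 51.5, 58.2, 51.6 and 57.0 CPM in DMSO replicates 1 to 5. In FICZ replicates 1 to 5 it was at 55.1, 47.6, 67.1, 45.0 and 36.0 CPM. Replicate 3 was the highest in each group, but replicate 1 was the lowest in DMSO and replicate 5 the lowest in FICZ, so the order of the libraries differed between the groups. Its log2 fold change was -0.04 (95% interval -0.39 to 0.30, adjusted p = 0.999 in edgeR), with 2 of 5 pairs higher. Number 1 had the largest difference upwards, 0.47 in log2 CPM, and number 5 the largest downwards, -0.66. With the replicate block the interval was -0.42 to 0.30, and the sign of the fold change turned without DMSO replicate 3 (0.01) and without FICZ replicate 5 (0.04). Per length, Ccl2 exceeded Ccl7 in all 10 libraries, by a ratio of 2.29 to 3.90 in DMSO and 2.33 to 3.49 in FICZ, and the lowest ratio of each group was that of replicate 5.

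Ccl11, eotaxin, draws eosinophils through CCR3 and lies 10.3 kb beyond Ccl7. Its level was 34.1, 37.2, 35.2, 67.7 and 79.6 CPM in DMSO replicates 1 to 5, and 40.1, 33.9, 40.2, 48.9 and 57.2 CPM in FICZ. Replicates 4 and 5 were the highest in both groups, and the other 3 lay close together at 33.9 to 40.2 CPM under either treatment. In edgeR the log2 fold change was -0.21 (95% interval -0.76 to 0.35, adjusted p = 0.999 in edgeR), and 2 of 5 pairs were higher in FICZ. Numbers 2, 4 and 5 had negative differences, -0.13, -0.47 and -0.48 in log2 CPM. Without DMSO replicate 5 the fold change was 0.02. The replicate block gave Ccl11 a log2 fold change of -0.13, with an interval of -0.43 to 0.16.

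Ccl9 encodes a ligand of CCR1 and lies further along the same chromosome, on the opposite strand. It was at 14.0, 19.1, 14.8, 20.0 and 31.9 CPM in DMSO replicates 1 to 5, a coefficient of variation of 35.9%. In FICZ replicates 1 to 5 it was at 14.5, 15.9, 16.3, 13.3 and 17.8 CPM, a coefficient of 11.2%. DMSO replicate 5, the library with the most liver and macrophage transcripts, was the highest, and the FICZ libraries lay within the lower part of the DMSO range apart from FICZ replicate 4, which was the lowest of all 10. The log2 fold change was -0.36 (95% interval -0.80 to 0.08, adjusted p = 0.999 in edgeR), with 2 of 5 pairs higher. Without DMSO replicate 5 it was -0.13. The replicate block gave Ccl9 a log2 fold change of -0.30, with an interval of -0.66 to 0.06 and an adjusted p of 0.929 in edgeR. Of the 50-base words of Ccl9 transcripts, 1.97% also occur in transcripts of 463 other genes. For Cxcl5 the share was 0.693%, with 9 other genes, and for Cxcl9 0.472%, with 119. Whether shared reads entered these counts was not tested.

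**Figure D2:**
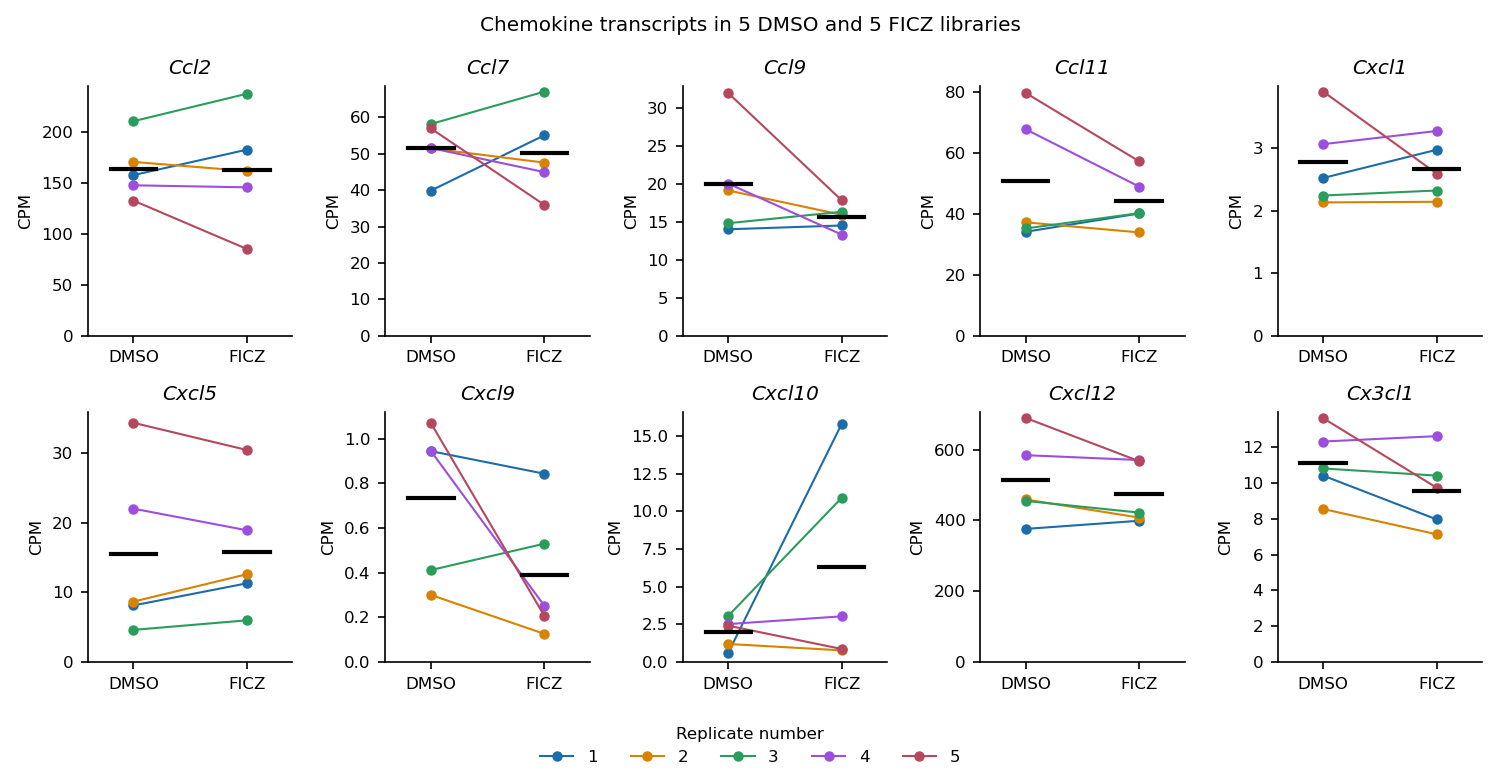
CPM of each chemokine gene in DMSO and FICZ libraries, on linear axes that start at 0, with lines joining libraries of the same replicate number and black bars for the means of 5. For each of the 10 genes the groups overlapped, and lines went up and down within the same panel.

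Cxcl1 and Cxcl5 attract neutrophils through CXCR2 and lie 129.6 kb apart on chromosome 5. Cxcl1 was at 2.52, 2.13, 2.24, 3.06 and 3.90 CPM in DMSO replicates 1 to 5 and at 2.97, 2.14, 2.32, 3.27 and 2.59 CPM in FICZ. It was higher in FICZ in 4 of 5 pairs, by at most 0.24 in log2 CPM, and lower in number 5 by -0.58. Over the group means the log2 fold change was -0.06 (95% interval -0.50 to 0.38, adjusted p = 0.999 in edgeR), so the mean and the majority of pairs pointed in opposite directions. Without DMSO replicate 5 it was 0.10. The replicate block gave Cxcl1 a log2 fold change of -0.04, with an interval of -0.41 to 0.32.

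Cxcl5 was at 8.13, 8.68, 4.63, 22.0 and 34.3 CPM in DMSO replicates 1 to 5. In FICZ replicates 1 to 5 it was at 11.3, 12.6, 6.00, 18.9 and 30.4 CPM. The libraries had the same order in both groups, with replicate 5 the highest, then 4, 2, 1 and 3, and the highest was 7.42 times the lowest in DMSO and 5.06 times in FICZ. Replicate number took 95.7% of the sum of squares of log2 CPM and treatment 1.14%. The log2 fold change of 0.03 had a 95% interval of -1.16 to 1.22 (adjusted p = 0.999 in edgeR). With the replicate block it was 0.19, with an interval of -0.14 to 0.52, and the pair differences were 0.47, 0.54 and 0.37 for numbers 1 to 3 and -0.22 and -0.18 for numbers 4 and 5. Leaving out DMSO replicates 1, 2 or 3 or FICZ replicates 4 or 5 turned the sign of the unpaired value, which ran from -0.36 to 0.54 over the 10 omissions. Per length Cxcl5 exceeded Cxcl1 in every library, by a ratio of 1.25 to 5.33 in DMSO and 1.57 to 7.11 in FICZ.

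Cxcl9 and Cxcl10, ligands of CXCR3 that draw activated T cells and natural killer cells, lie 18.6 kb apart on chromosome 5 and on the same strand. Cxcl9 had few counts, with 36, 15, 18, 41 and 52 counts in DMSO replicates 1 to 5 and 36, 6, 21, 11 and 9 counts in FICZ. In CPM this was 0.944, 0.301, 0.412, 0.945 and 1.07 in DMSO and 0.843, 0.127, 0.530, 0.253 and 0.208 in FICZ. The 3 lowest libraries were FICZ replicates 2, 5 and 4. FICZ replicate 1 lay above DMSO replicates 2 and 3 and below DMSO replicates 1, 4 and 5, so the groups overlapped. For Cxcl9 the log2 fold change was -0.90 (95% interval -2.04 to 0.23, adjusted p = 0.999 in edgeR), and 4 of 5 pairs were lower in FICZ. Numbers 4 and 5 had the largest differences, -1.73 and -2.13 in log2 CPM, and number 3 had 0.33. Over the 10 omissions of a library the value lay between -1.40 and -0.67, and with Alb as a covariate it was -0.28. The replicate block gave Cxcl9 a log2 fold change of -0.99, with an interval of -2.03 to 0.04 and an adjusted p of 0.929 in edgeR.

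Cxcl10 had the most uneven values. The counts were 24, 60, 134, 110 and 118 in DMSO replicates 1 to 5 and 673, 37, 432, 132 and 38 in FICZ replicates 1 to 5. In CPM it was at 0.629, 1.21, 3.07, 2.53 and 2.42 in DMSO and at 15.8, 0.785, 10.9, 3.04 and 0.878 in FICZ. FICZ replicates 1 and 3 were far above all other libraries, FICZ replicate 4 was at the level of the highest DMSO libraries, and FICZ replicates 2 and 5 lay near the bottom of the DMSO range. The coefficient of variation was 51.4% in DMSO and 107% in FICZ, the largest of the 10 members in FICZ. The log2 fold change was 1.66 (95% interval -0.05 to 3.38, adjusted p = 0.999 in edgeR). With the replicate block it was 0.85, with an interval of -1.22 to 2.93. Within pairs the difference in log2 CPM was 4.55 for number 1, -0.59 for number 2, 1.81 for number 3, 0.26 for number 4 and -1.42 for number 5, so 3 of 5 pairs were higher. Without FICZ replicate 1 the fold change was 0.98 and without FICZ replicate 3 it was 1.37.

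Per length the ratio of Cxcl10 to Cxcl9 was 1.27, 7.60, 14.1, 5.10 and 4.31 in DMSO replicates 1 to 5. In FICZ replicates 1 to 5 it was 35.5, 11.7, 39.1, 22.8 and 8.03. Cxcl10 exceeded Cxcl9 in all 10 libraries, the ratio was higher in FICZ in 5 of 5 pairs, and the groups overlapped, with FICZ replicates 2 and 5 below DMSO replicate 3. The ratio was described after the values were seen and carries no test. Of the 50-base words of Cxcl10 transcripts, 3.59% also occur in Art3, a gene on the other strand whose span from 92331827 to 92414628 contains Cxcl10. Art3 had 5 to 28 counts per library. The use of strand in counting was not given in the sources used here, and whether shared reads entered the Cxcl10 counts was not tested.

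The profile of Cxcl10 over the 10 libraries was nearest to those of Mx1, Ifit1 and Rsad2, with root mean square differences of 0.21, 0.24 and 0.27 in z-scored log2 CPM. The search covered the genes tested with a mean of at least 10 counts, other than the members. Mx1 was at 0.131, 0.241, 0.825, 0.484 and 0.452 CPM in DMSO replicates 1 to 5 and 7.14, 0.127, 4.77, 0.599 and 0.300 CPM in FICZ. Ifit1 was at 2.7, 7.47, 8.73, 13.0 and 11.4 CPM in DMSO and 70.0, 5.01, 43.9, 13.3 and 6.47 CPM in FICZ. For both, FICZ replicates 1 and 3 were the highest of the 10 libraries and FICZ replicate 2 was at or near the bottom. Rsad2 had the same highest libraries, at 32.8 and 22.5 CPM, with 1.02 to 5.24 CPM in the other 8.

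**Figure D3:**
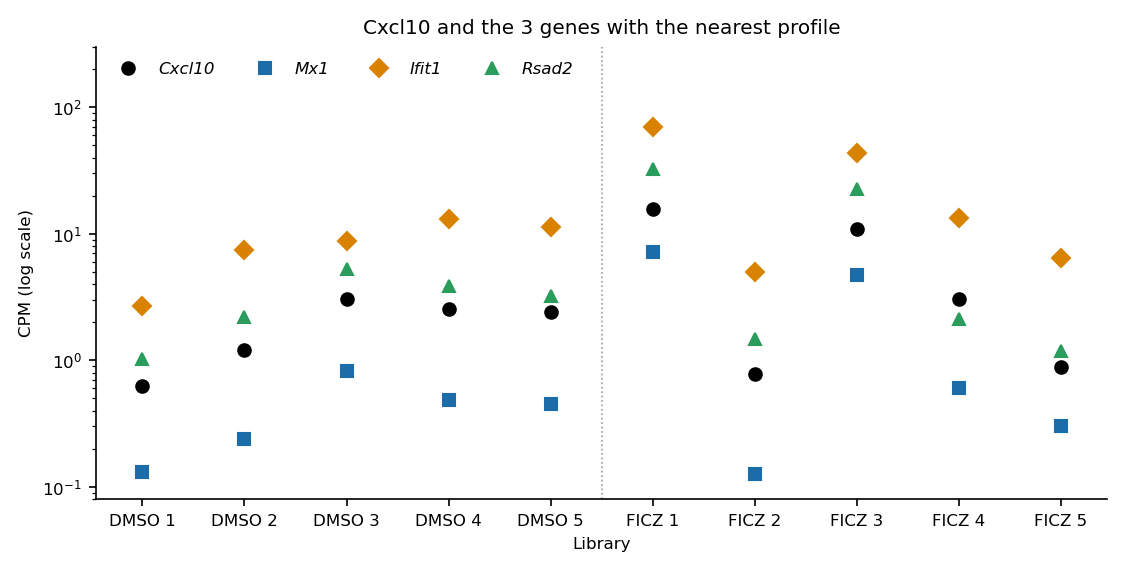
CPM of Cxcl10 and of the 3 genes with the nearest profile, on a log axis, in each of the 10 libraries (1 point per gene and library). The 4 genes were highest in FICZ replicates 1 and 3, where Cxcl10 reached 15.8 and 10.9 CPM, and Cxcl10 did not exceed 3.07 CPM elsewhere.

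Of the list of 20 genes induced by interferons, 19 had a higher mean in FICZ, 0 passed the threshold in edgeR, and 10 had an unadjusted p at or under 0.05, against 2 with the replicate block. Of all genes tested, 4.82% had such a p, or 4.65% with the block, and 46.2% had a negative log2 fold change. The median log2 fold change was 0.80, and 0.68 with the block, beside 0.01 over all genes tested. Summed over the list, the level was 388, 488, 367, 640.3 and 547 CPM in DMSO replicates 1 to 5. In FICZ replicates 1 to 5 it was 1133, 422, 849.6, 678 and 572 CPM. FICZ replicates 1 and 3 were the highest in this sum, and the other 3 FICZ libraries lay within or just above the DMSO range. Mx1, Ifit1 and Rsad2 belong to the list, so the sum is not separate from their profiles above. Irf7, the most abundant per length and a regulator of interferon genes, had a log2 fold change of 0.26 (adjusted p = 0.999 in edgeR) with 2 of 5 pairs higher. Irf1, the next and also a transcription factor, had a log2 fold change of 0.47 (adjusted p = 0.999 in edgeR), with 5 of 5 pairs higher, from 53.3 ± 7.23 CPM in DMSO to 73.9 ± 11.2 CPM in FICZ.

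Cxcl12, also known as stromal cell-derived factor, binds CXCR4 and ACKR3 and retains blood-forming and precursor cells in their niches. With 14330 to 33562 counts per library it had the most counts of the members, 57.2% to 65.9% of their sum in DMSO and 51.9% to 70.2% in FICZ. Its level was 376, 459, 455, 584 and 689 CPM in DMSO replicates 1 to 5 and 399, 408, 422, 570.3 and 567 CPM in FICZ. Replicates 4 and 5 were the highest in both groups, and the groups overlapped. FICZ against DMSO gave a log2 fold change of -0.12 (95% interval -0.49 to 0.26, adjusted p = 0.999 in edgeR), with 1 of 5 pairs higher. With the replicate block the interval ran from -0.27 to 0.07, the narrowest of the 10 members. Without DMSO replicate 5 the value was 0.01.

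Cx3cl1, fractalkine, is made as a membrane-bound adhesion molecule that Adam10 and Adam17 can shed, and binds CX3CR1 on monocytes. It was at 10.4, 8.54, 10.8, 12.3 and 13.6 CPM in DMSO replicates 1 to 5, and at 7.96, 7.13, 10.4, 12.6 and 9.73 CPM in FICZ. DMSO replicate 5 was the highest and FICZ replicate 2 the lowest, and replicate 2 was the lowest within each group. The log2 fold change was -0.22 (95% interval -0.59 to 0.15, adjusted p = 0.999 in edgeR), with 4 of 5 pairs lower in FICZ. With the replicate block it was -0.23, with an interval of -0.47 to 0.01 and an adjusted p of 0.929 in edgeR. Over the 10 omissions of a library it lay between -0.34 and -0.13. Adam10 averaged 202 CPM under DMSO and 210.1 CPM under FICZ and Adam17 116 and 118 CPM, with log2 fold changes of 0.05 and 0.02.

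The share of replicate number in the sum of squares of log2 CPM, with 4 of 9 degrees of freedom, was 95.7% for Cxcl5, 91.6% for Cxcl12, 84.0% for Ccl11, 83.4% for Ccl2, 72.6% for Cxcl1 and 72.1% for Cx3cl1. These 6 members lay above the median of 58.1% over all genes tested. Ccl9 (53.4%), Cxcl9 (46.7%), Ccl7 (42.0%) and Cxcl10 (37.0%) lay below it. The share of treatment, with 1 of 9 degrees of freedom, was largest for Cxcl9 at 27.0%, Ccl9 at 18.5%, Cx3cl1 at 16.4% and Cxcl10 at 10.2%, where the median gene had 4.35%. The SD of log2 CPM between libraries exceeded that of the median gene for 9 of 10 members in DMSO (median gene 0.236) and for 9 of 10 in FICZ (0.186).

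**Figure D4:**
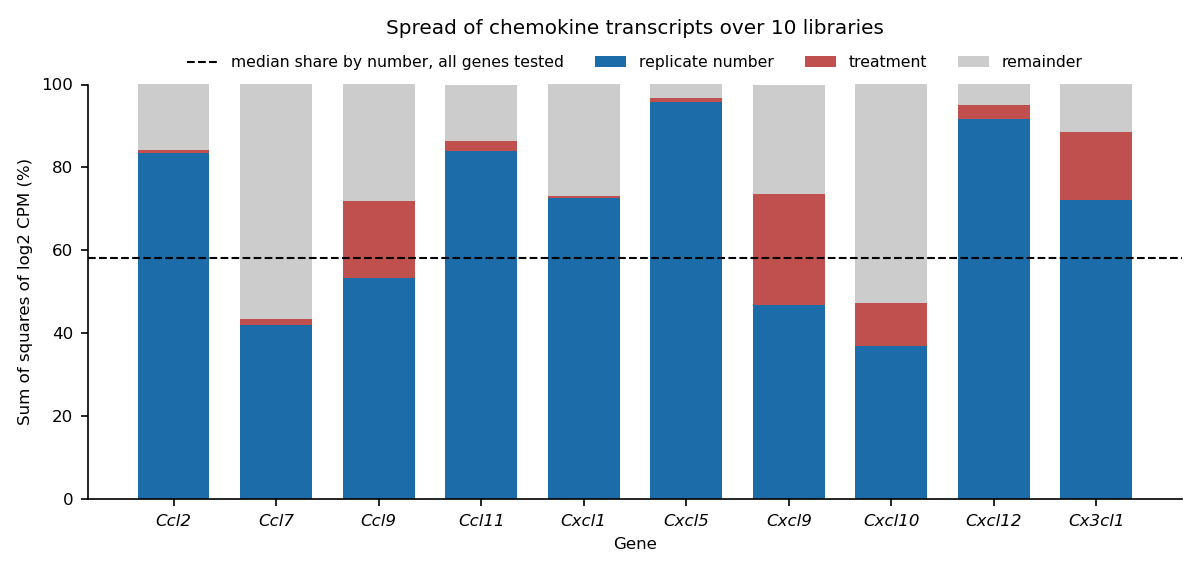
Share of the sum of squares of log2 CPM over 10 libraries, in percent, taken by replicate number (blue), treatment (red) and the remainder (grey) for each chemokine gene, with a dashed line at the median share by number of all genes tested. The share by number ran from 37.0% for Cxcl10 to 95.7% for Cxcl5, around the median of 58.1%.

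Within the DMSO group, replicate 5 was the highest library for 7 of 10 members, Ccl9, Ccl11, Cxcl1, Cxcl5, Cxcl9, Cxcl12 and Cx3cl1, and for 35.8% of all genes tested. It was the lowest for 1 member, Ccl2, and for 37.4% of genes. The same library had a summed hepatocyte level of 9503 CPM and a summed macrophage level of 62.6 CPM. When Alb in log2 CPM entered the model as a covariate, 0 of 10 members and 2 of all genes tested passed the threshold in edgeR. The log2 fold changes of Ccl11 (0.13), Cxcl1 (0.17) and Cxcl12 (0.01) turned positive. That of Cxcl5 moved from 0.03 to 0.88, that of Cxcl9 from -0.90 to -0.28, that of Ccl9 from -0.36 to -0.11 and that of Cx3cl1 from -0.22 to -0.11, while Ccl2 stood at -0.11, Ccl7 at -0.03 and Cxcl10 at 1.79. Whether other cells in that library gave the higher chemokine levels was not tested.

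The genes with the nearest profile to the other members, by the same measure, were described without a test. They were Fhl2 (0.19), Cdca4 and Srprb for Ccl2, and Il6 (0.27), Slc33a1 and Ubtd2 for Ccl7. Ccl9 was nearest to Agbl3 (0.26), Nfia and Mpv17l, and Ccl11 to Steap4 (0.16), Slc2a8 and Tcn2. Cxcl1 was nearest to Vps25 (0.27), Ifitm2 and Smpd1, and Cxcl5 to Accs (0.19), Slc2a6 and Slc7a8. Among the members themselves, Ccl11 and Cxcl12 were nearest to each other (0.39), and so were Ccl2 and Ccl7 (0.66). Cxcl9, with few counts, was nearest to Tmem8b (0.27), Adora2b and Mfsd13a, and had no member closer than 0.96. Cxcl12 was nearest to Pxylp1 (0.19), Cyp2j9 and Mcoln1, and Cx3cl1 to Prrt1 (0.31), Erfe and Mxra8.

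Of 30 other chemokine ligand genes, 11 passed the filter on low counts and 8 had no count in any library. None of the 11 passed the threshold in edgeR, with 0 at an unadjusted p of 0.05 or less and 1 with the block, beside 4.82% and 4.65% of all genes tested. Of the 11, 4 had a higher and 7 a lower mean in FICZ, and their median log2 fold change was -0.03. Cxcl14, an abundant ligand of tissue fibroblasts and epithelia, led them at 35.0 CPM per kb over all libraries, averaging 61.9 ± 20.1 CPM under DMSO and 65.9 ± 20.6 CPM under FICZ. Ccl8 followed at 7.19 CPM per kb, averaging 4.09 ± 2.90 and 3.25 ± 0.893 CPM.

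Most of the receptors for these ligands were scarcely counted. Of 23 receptor genes, 7 passed the filter on low counts, 4 had no count in any library, and 0 passed the threshold in edgeR, with 0 at an unadjusted p of 0.05 or less, with or without the block, beside 4.65% and 4.82% of all genes tested; the median log2 fold change was -0.25. Ackr3, a scavenging receptor for Cxcl12, was the most abundant per length, averaging 6.40 ± 1.80 CPM under DMSO and 5.03 ± 0.584 CPM under FICZ. Ccr1, a receptor of Ccl9, followed, averaging 2.99 ± 1.71 and 3.60 ± 2.29 CPM. The signalling receptors of the other members had few counts per library, from 0 to 23 for Ccr2, 1 to 14 for Ccr3, 0 to 2 for Cxcr2, 0 to 1 for Cxcr3, 3 to 27 for Cx3cr1 and 6 to 32 for Cxcr4. These 6 were named as partners of the members and not by level.

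Of 6 proteases that trim or shed chemokines, all were tested, 0 passed the threshold in edgeR, and 0 had an unadjusted p at or under 0.05, against 2 with the block, beside 4.82% and 4.65% of all genes tested. Mmp9 had only 2 to 25 counts per library, and the other 5 had at least 1109. Mmp2, a gelatinase that cleaves Cxcl12 and Ccl7, averaged 1058 ± 348 CPM under DMSO and 933 ± 267 CPM under FICZ, and was lower in FICZ in 5 of 5 pairs with an adjusted p of 0.999 in edgeR and 0.929 with the block. Mmp14, a membrane-bound protease, was at 1317 ± 58.2 and 1246 ± 226 CPM. Of 18 genes induced through NF-kB, 17 were tested, 0 passed the threshold in edgeR, and 4 had an unadjusted p at or under 0.05, or 5 with the block, beside 4.82% and 4.65% of all genes tested, with a median log2 fold change of 0.06. Csf1, the macrophage growth factor gene, led this list at 3197 ± 756 CPM under DMSO and 3435 ± 646 CPM under FICZ. Ptx3, which encodes the soluble pattern receptor pentraxin 3, was at 123 ± 49.1 and 197 ± 39.4 CPM, higher in 5 of 5 pairs with a log2 fold change of 0.68 (adjusted p = 0.999 in edgeR, and 0.568 with the block).

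The genes fall in clusters on the chromosomes of GRCm38, the assembly of mm10. Ccl2 (82035571 to 82037453), Ccl7 (82045712 to 82047525) and Ccl11 (82057823 to 82062955) lie side by side on the plus strand of chromosome 11, with Ccl9 at 83572919 to 83578636 on the minus strand. Cxcl5 (90759360 to 90761624) and Cxcl1 (90891241 to 90893115) lie on the plus strand of chromosome 5, and Cxcl9 (92321347 to 92328079) and Cxcl10 (92346638 to 92348889) on its minus strand. Cxcl12 is on chromosome 6 (117168535 to 117181367) and Cx3cl1 on chromosome 8 (94772009 to 94782427), both on the plus strand. In the basic GENCODE set no exonic base of a member is shared with another gene, and no member shares a 50-base word with another chemokine gene.

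Neighbours in a cluster did not share a profile over the libraries throughout, and the pair of Cxcl9 and Cxcl10 is shown by its upstream sequence. RefSeq sequences of GRCm38.p6 were held for 6 of the 10 members, Ccl9, Cxcl1, Cxcl9, Cxcl10, Cxcl12 and Cx3cl1. The 250 bases before each RefSeq start were searched on both strands for GCGTG, the core of the AHR element, TATAAA, GAAANNGAAA, the interferon-stimulated response element, and the NF-kB consensus. The sequences are given 5′ to 3′ as the gene reads, from the minus strand, with matches in capitals, for Cxcl9 at chr5:92328080-92328329 and for Cxcl10 at chr5:92348890-92349139.
Cxcl9: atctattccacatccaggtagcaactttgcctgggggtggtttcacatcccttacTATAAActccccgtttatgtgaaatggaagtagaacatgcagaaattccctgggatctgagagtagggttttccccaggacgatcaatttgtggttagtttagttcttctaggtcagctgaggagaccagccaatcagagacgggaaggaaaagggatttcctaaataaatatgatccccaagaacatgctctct
Cxcl10: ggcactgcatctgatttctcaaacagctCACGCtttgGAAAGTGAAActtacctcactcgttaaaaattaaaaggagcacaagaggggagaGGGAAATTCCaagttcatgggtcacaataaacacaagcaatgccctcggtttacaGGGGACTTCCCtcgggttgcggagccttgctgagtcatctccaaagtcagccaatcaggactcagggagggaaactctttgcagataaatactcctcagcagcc
The Cxcl9 stretch holds TATAAA with its first base at -195. The Cxcl10 stretch holds GCGTG on the opposite strand at -222, the response element at -213, and the NF-kB consensus at -159 and, in overlapping matches, at -104 and -103. Among the other 4 members, the NF-kB consensus occurs before Cxcl1 (-71, overlapping with a match on the other strand at -70) and Ccl9 (-35), and TATAAA before Ccl9, while the Cxcl12 stretch holds none of the 4 motifs. The Cx3cl1 stretch (94771930 to 94772179) ends in TATAAA, but its RefSeq start lies downstream of the GENCODE start at 94772009, so this match lies inside the gene span given above. Of all 32851 promoter stretches of the same length, 28.2% hold GCGTG, 12.4% TATAAA, 7.25% the NF-kB consensus and 2.98% the response element. A match describes the letters only.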

How the data were processed

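RNA of 10 cultures was measured by bulk sequencing. The authors aligned reads with STAR 2.7.7 to mm10, per the submitters' processing notes, and deposited a table of unnormalized counts by gene symbol. The counting program, annotation and strand setting are not given in the sources used here. Counts were tested with edgeR 4.0.16 in R 4.3.3 (quasi-likelihood test, TMM factors, filter by expression, Benjamini-Hochberg adjustment over 14251 genes, threshold 0.05). CPM were scaled by TMM factors, and log2 CPM used a prior count of 2. Intervals are 95% intervals from the standard error and the degrees of freedom of the fit. Levels per length used the exons of protein-coding transcripts in GENCODE vM21 (GRCm38), upstream sequences came from RefSeq GRCm38.p6, and 50-base words were compared between transcripts. Alternatives were limma-voom (limma 3.58.1), DESeq2 1.42.0, other scalings and filters, a prior count of 0.5, Alb as a covariate, and leaving out each library. Permutation tests and sequence searches ran in Python 3.11.15 with SciPy 1.17.1. The edgeR and permutation steps were tested on simulated data.

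The labels give both groups the numbers 1 to 5. Deviations from the group means, across genes, correlated in each of the 5 same-numbered pairs of libraries (0.154 to 0.317, mean 0.252). Between different numbers the mean was -0.06, but deviations within a group cancel out, so this value largely follows from the same-numbered ones. From the same-numbered correlations, the numbers were taken to pair the libraries. A second edgeR fit held the replicate number as a block, which put 8 genes past the threshold in place of 3. Libraries of 1 group differed by more than sampling noise in all 20 pairs (chi-square per degree of freedom 16.4 to 285).

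The members and lists were chosen with earlier results of these data known. The genes named were all 10 members; the 3 genes nearest to each member with a mean of at least 10 counts; of the other lists the genes past the threshold, otherwise the 2 with the highest mean level per length; of each marker list its most abundant gene and markers at 0; and Cyp1a1, Ahrr, Tiparp and Cyp1b1. Pdgfra, Ptprc and Pecam1 were named for the sort, Art3 for its shared sequence, and Adam10, Adam17, Mmp9, Ccr2, Ccr3, Cxcr2, Cxcr3, Cxcr4 and Cx3cr1 as partners of the members, all after their values were seen. Besides Wt1, the rest of the mesothelial list was named to show how it divides, also after the values were seen.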

Additional observations from a re-analysis of the deposited data

Results flagged for a closer look

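A gap test for a library far from its group was applied to log2 CPM of the 10 chemokine genes and of Cyp1a1, Cyp1b1, Ahrr and Tiparp, 28 groups of 5 libraries in all. It marked 1 of the 28, where chance gives about 1.4. The library was DMSO replicate 4 for Ahrr, at 6.24 CPM where the other DMSO libraries had 10.6 to 11.6 CPM, and its gap to the nearest of them was 0.857 of the range of the group. No group of a chemokine gene was marked, including Cxcl10 in FICZ, where 2 libraries and not 1 lay far above the other 3.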

How the results depend on the processing

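Under 19 other settings, 10 of which leave out 1 library, the log2 fold changes of the 10 members were recomputed 189 times; Cxcl9 could not be fitted where at least 1 CPM in 5 libraries was required. In 170 the direction and the side of the threshold were as before, in 19 the direction turned, and in 0 a member passed the threshold. The members past the threshold, the other chemokines and the receptors past it, and the members separated by the exact permutation test were 0 under every setting run for them, but the sign-flip test within pairs could not have given another count, since its smallest possible p is 0.0625. With Alb as a covariate the sign turned for Ccl11 (0.13), Cxcl1 (0.17) and Cxcl12 (0.01), and without a change of sign Cxcl5 moved to 0.88, Cxcl9 to -0.28, Ccl9 to -0.11, Cx3cl1 to -0.11, Ccl2 to -0.11, Ccl7 to -0.03 and Cxcl10 to 1.79. Cxcl10 was 0.85 with the replicate block, 0.86 with limma-voom and 0.74 with DESeq2 with the replicate block. Cxcl5 turned with library size only (-0.01) and where at least 1 CPM in 5 libraries was required (-0.01). The other 14 reversals came from leaving out 1 library, and all 19 were of members whose fold change lay between -0.21 and 0.03, within their standard errors. Leaving out each library gave -0.19 to 0.14 for Ccl2, -0.17 to 0.04 for Ccl7, -0.34 to 0.02 for Ccl11, -0.14 to 0.10 for Cxcl1, -0.36 to 0.54 for Cxcl5, -0.22 to 0.01 for Cxcl12, -0.48 to -0.13 for Ccl9, -1.40 to -0.67 for Cxcl9, 0.98 to 1.95 for Cxcl10 and -0.34 to -0.13 for Cx3cl1. The count of all genes past the threshold was 3, and 8 with the replicate block, 16 with DESeq2, 26 with DESeq2 with the replicate block and 1 to 4 without 1 library; the cause was not tested. The replicate block changed no other call among the counts and the members. At 6 to 52 counts per library, Cxcl9 is the member whose values depth limits most.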
